A study of Mus musculus with 24 samples.

Results

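The kallikrein-related peptidases Klk5, Klk6, Klk7, Klk8, Klk9, Klk10, Klk11, Klk12, Klk13 and Klk14 were followed across the BURP bladder tumor lines. The 10 genes were chosen by name and found by their Ensembl identifiers among the 53465 genes of the count table. Total RNA had been sequenced from 24 tumors, 3 from each of 8 lines, after depletion of ribosomal RNA. Each line began as 1 bladder tumor of a C57BL/6NTac mouse given the carcinogen BBN (N-butyl-N-(4-hydroxybutyl)-nitrosamine) in its drinking water, so that the donors of all lines had been exposed to it, and tumor pieces were then passed under the skin of syngeneic immune-competent mice of the donor's sex. Of the basal/squamous (Ba/Sq) lines, BURP-12BaSq, BURP-17BaSq, BURP-18BaSq had male donors. The donors of BURP-21BaSq, BURP-24BaSq, BURP-25BaSq were female. The stroma-rich line BURP-16SR, sarcomatoid in histology, and the neuroendocrine-like line BURP-19NE both came from males. In the study's classification 1 of the 3 BURP-16SR tumors went with the neuroendocrine-like class and the others with the stroma-rich class. Sex and subtype of the lines are those given by the study. A line stands for 1 donor mouse, and the subcutaneous tumors also held cells of the host.

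Kallikrein-related peptidases are secreted serine proteases made as inactive precursors. In stratified squamous epithelium, above all the epidermis, they cleave the proteins of the desmosomes that hold cornified cells together, they activate each other in a cascade, and they are held back by inhibitors such as the product of Spink5. Klk5, Klk7 and Klk14 are the members best known for shedding of the skin surface, Klk8 is also known as neuropsin, and Klk6 is well known from brain and spinal cord.

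All 10 genes lie on the plus strand of chromosome 7 in the mouse build GRCm38, in the order Klk14, Klk13, Klk12, Klk11, Klk10, Klk9, Klk8, Klk7, Klk6 and Klk5, from base 43690418 to base 43851181, a span of 160.764 kb. Klk12 and Klk11 are 1.02 kb apart and Klk9 and Klk8 0.819 kb, whereas 41.4 kb separate Klk13 from Klk12. The antisense gene 2310002F09Rik, 102.75 kb long, runs on the minus strand from Klk14 to Klk8 and shares 382 exon bases with Klk8 and 287 with Klk14. The library kit keeps strand, but the strand setting of the counting is not given in the sources used here, so reads of Klk8, Klk14 and this antisense gene may have been split among them.

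The sequences before the transcription starts are shown for the 5 members whose levels differ most in what follows, Klk14 and Klk13, which were at or near 0 in BURP-16SR, and Klk9, Klk8 and Klk7, which were not. They are the 250 bases before the start of the RefSeq gene on the plus strand of GRCm38.p6, written 5′ to 3′, and capitals mark a match to GCCNNNGGC, a motif of the AP-2 factors.
Klk14, chr7:43690168-43690417: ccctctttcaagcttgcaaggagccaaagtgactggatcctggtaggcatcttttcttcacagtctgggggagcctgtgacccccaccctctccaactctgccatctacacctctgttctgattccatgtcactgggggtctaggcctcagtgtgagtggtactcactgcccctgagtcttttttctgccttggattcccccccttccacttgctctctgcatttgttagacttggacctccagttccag
Klk13, chr7:43712317-43712566: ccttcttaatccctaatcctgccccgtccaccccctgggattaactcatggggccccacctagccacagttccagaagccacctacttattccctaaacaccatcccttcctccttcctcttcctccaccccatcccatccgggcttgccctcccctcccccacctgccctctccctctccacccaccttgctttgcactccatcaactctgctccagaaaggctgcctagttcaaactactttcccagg
Klk9, chr7:43791641-43791890: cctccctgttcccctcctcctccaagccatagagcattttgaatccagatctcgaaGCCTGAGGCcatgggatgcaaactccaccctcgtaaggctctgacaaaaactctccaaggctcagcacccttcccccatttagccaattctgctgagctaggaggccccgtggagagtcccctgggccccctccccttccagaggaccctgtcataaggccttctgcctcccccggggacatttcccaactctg
Klk8, chr7:43797327-43797576: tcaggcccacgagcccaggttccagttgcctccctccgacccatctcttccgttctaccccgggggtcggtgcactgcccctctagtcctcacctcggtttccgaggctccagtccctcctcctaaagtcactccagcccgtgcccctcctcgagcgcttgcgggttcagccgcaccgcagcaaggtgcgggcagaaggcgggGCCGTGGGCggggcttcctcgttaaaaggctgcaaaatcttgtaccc
Klk7, chr7:43811044-43811293: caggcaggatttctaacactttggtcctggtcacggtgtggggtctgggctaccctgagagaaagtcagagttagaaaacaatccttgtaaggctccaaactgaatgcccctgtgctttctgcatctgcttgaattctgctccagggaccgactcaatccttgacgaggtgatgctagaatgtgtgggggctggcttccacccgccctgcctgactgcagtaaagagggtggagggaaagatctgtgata
RefSeq gave 12 start windows for the 10 members, since Klk6 and Klk11 have more than 1. GCCNNNGGC, which reads the same on both strands, was found in 2 of the 12, those of Klk8 and Klk9, and in 13.7% of the 32851 windows of the same length of all genes. TGANTCA (AP-1), TATAAA (the TATA box) and AACNGGTT (grainyhead factors), each searched on both strands, were found in 0 of the 12 and in 6.75%, 12.4% and 1.79% of all windows. The matches did not overlap each other. A match describes these letters and is no evidence of a bound factor.

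Total counts per tumor ranged from 9295708 to 25370320. Levels are given as CPM, counts scaled to a common library size, after TMM normalization over all 24 tumors, with the mean ± SD of the 3 tumors of a line, and 3 counts are taken as the smallest level a library could show. That floor lay between 0.106 and 0.412 CPM in 23 tumors and at 1.34 CPM in tumor C102-M30 of BURP-25BaSq, where 61.9% of all counts fell on the ribosomal RNA gene CT010467.1. Intervals and floors cover counting error alone. Over the 500 most variable genes, kallikreins left out, 17 of the 18 Ba/Sq tumors correlated best with the other tumors of their own line. The exception was C102-M1, labelled BURP-25BaSq, with r = 0.92 to BURP-21BaSq and r = 0.27 to the other tumors of BURP-25BaSq. Results that rest on C102-M1 or C102-M30 are given with and without them.

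The study assigned the subtypes from the RNA of these tumors, so squamous RNA levels describe the Ba/Sq label and cannot test it. Histology and keratin staining of the Ba/Sq lines were reported by the study as well. Krt5, the keratin of basal squamous cells, was at 2950 to 6053 CPM in all 18 Ba/Sq tumors. It was at most 0.339 CPM in BURP-16SR and 0.0421 CPM in BURP-19NE. The summed level of 5 squamous genes (Krt5, Krt14, Trp63, Krt6a and Dsg3) ran from 7921 to 21007 CPM in the Ba/Sq tumors and from 0.0699 to 1.27 CPM in the other 6.

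In the Ba/Sq tumors 4 genes had the highest means. Per kb of exon, which makes genes comparable, the mean level over the 18 tumors was 26.6 CPM per kb for Klk8, 25.1 for Klk10, 14.2 for Klk14 and 13.1 for Klk13. Klk9, Klk11 and Klk12 followed at 4.49, 4.22 and 3.42 CPM per kb, then Klk7 at 1.58 and Klk6 at 0.792, and Klk5 was last at 0.104 CPM per kb. Without C102-M1 the means of Klk12, Klk7, Klk6 and Klk5 were 2.02, 0.869, 0.504 and 0.0534 CPM per kb, while those of the other members fell by less than 1.5 times. Among tumors the levels were so spread that these means say little about a single tumor. Klk8 had a median of 20.5 CPM and ran from 0.448 to 134 CPM, and Klk10 had a median of 18.03 CPM and ran from 0 to 164 CPM. Klk14 had a median of 4.02 CPM and ran from 0 to 117 CPM. As a share of the family's summed level per kb, the median of Klk14 was 5.39%. It was close to those of Klk9 (4.53%) and Klk11 (4.11%) and below that of Klk13 (12.1%). Klk5, the protease placed at the head of the skin cascade, was detected in 5 of the 18 Ba/Sq tumors and in 0 of the 6 others, with 23 counts at most.

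**Figure D1:**
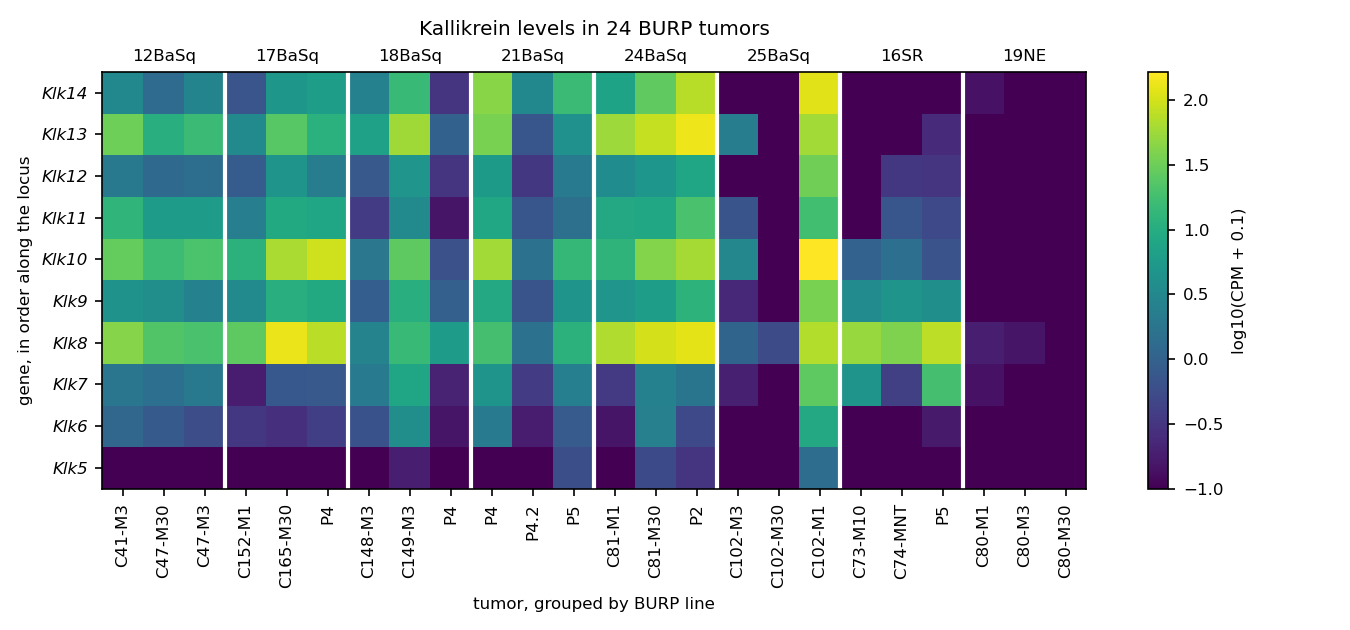
Level of each kallikrein gene (rows, in their order along chromosome 7) in each of the 24 tumors (columns, grouped by line), as log10 of CPM + 0.1. Klk8 and Klk10 are bright across most Ba/Sq tumors, the BURP-19NE columns are dark throughout, BURP-16SR keeps Klk7, Klk8 and Klk9, and the columns of BURP-25BaSq contrast C102-M1 with the other tumors of that line.

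BURP-19NE had almost no kallikrein RNA. Its 3 tumors held 4, 1 and 0 counts over all 10 members together, against 1 to 10508 counts in the Ba/Sq tumors. Klk8 was at 0.0842, 0.0527 and 0 CPM, and all Ba/Sq tumors other than C102-M30 were above these values. C102-M30 had 1 count (0.448 CPM), below its floor of 1.34 CPM, and cannot be placed against them. The Ba/Sq mean of Klk8 was 883-fold higher, with a 95% counting interval from 302-fold to 4284-fold because the BURP-19NE tumors gave 3 counts in all. For Klk14 and Klk7, with 1 count each in BURP-19NE, the ratios were 1168-fold (from 210-fold to 46123-fold) and 193-fold (from 34.7-fold to 7639-fold). For the 6 members tested that were at 0 in all BURP-19NE tumors, only lower bounds can be given against the highest floor of that line, 0.158 CPM per library. Klk10 was at least 218-fold lower there, Klk13 at least 190-fold, Klk9 at least 41.9-fold, Klk11 at least 39.1-fold, Klk12 at least 25.8-fold and Klk6 at least 7.58-fold. Without C102-M1 the bounds of Klk12 and Klk6 were 15.2-fold and 4.82-fold and the ratio of Klk7 was 107-fold, and the others moved by less than 1.5 times.

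In edgeR's quasi-likelihood test with Benjamini-Hochberg adjustment, 9 of the 10 members passed the filter on low counts and 9 were called lower in BURP-19NE, at adjusted p from 0.00184 (Klk8) to 0.0257 (Klk6). A gene is called at an adjusted p under 0.05 and an absolute log2 difference above 1. Of all 20995 genes tested, 15.0% were called lower and 9.33% higher. The members passed the filter through the Ba/Sq tumors alone, so the count has little weight of its own. When any 1 BURP-19NE tumor was left out, 6 were called, with Klk6, Klk7 and Klk14 lost. Without C102-M1 and C102-M30, 9 were called.

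BURP-16SR, in which the squamous keratins were near 0 as in BURP-19NE, still held RNA of a part of the family. Klk8 was at 52.6, 39.0 and 78.2 CPM in its 3 tumors (56.6 ± 19.9), inside the range of the Ba/Sq tumors and above their median of 20.5 CPM. Klk9, a chymotrypsin-like member that neighbors Klk8, was at 3.48, 4.57 and 3.92 CPM (3.99 ± 0.549), close to the Ba/Sq median of 4.455 CPM. Klk7, the chymotrypsin-like protease of the skin, was at 4.58, 0.310 and 18.5 CPM (7.78 ± 9.49), so that 1 tumor was below the Ba/Sq median of 1.53 CPM and 2 were above it. None of the 3 genes was called different from the Ba/Sq tumors by the edgeR test. The log2 differences were 0.52 ± 1.02 (SE) for Klk8, −0.67 ± 1.04 for Klk9 and 1.41 ± 1.15 for Klk7, with adjusted p of 0.745, 0.678 and 0.396. These errors leave room for changes of several fold in either direction. Without the tumor P5 the difference of Klk7 became −0.30 (adjusted p = 0.919).

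On the other side of Klk9 along the locus the levels in BURP-16SR were low. Klk10 was at 0.932, 1.39 and 0.560 CPM (0.962 ± 0.418) against a Ba/Sq mean of 34.5 ± 42.3 CPM. Klk13 was at 0, 0 and 0.140 CPM against a Ba/Sq mean of 30.1 ± 36.7 CPM, and all but 1 of the Ba/Sq tumors, C102-M30 at 0, were above these values. Klk14, a trypsin-like protease of the skin, was at 0 in all 3 tumors, which puts it at least 70.9-fold below the Ba/Sq mean of 18.03 CPM at a floor of 0.254 CPM per library. Klk11 was at 0, 0.619 and 0.420 CPM and Klk12 at 0, 0.232 and 0.210 CPM. Beyond Klk7, Klk6 had 1 count in the 3 tumors and Klk5 none.

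The edgeR test called 4 members lower in BURP-16SR among the 9 that passed the filter, where 8.62% of the 21028 genes tested were called lower and 10.5% higher. They were Klk13 (log2 difference −8.99 ± 2.37 SE, adjusted p = 0.00831), Klk14 (adjusted p = 0.0303), Klk10 (−5.09 ± 1.68, adjusted p = 0.0307) and Klk11 (−4.06 ± 1.49, adjusted p = 0.0499). Klk12 (−4.65 ± 1.81, adjusted p = 0.063) and Klk6 (−5.20 ± 2.09, adjusted p = 0.0715) missed the threshold. Klk13 was the only member called under all 27 alternatives, Klk10 and Klk14 were lost when any 1 BURP-16SR tumor was left out, and Klk11 was called under 12 of the 27. Without C102-M1 and C102-M30, 5 members were called, Klk12 being the additional one. The 4 called members passed the filter through the Ba/Sq tumors, so this count has the same limit as that of BURP-19NE. That members differ from each other in their change was not tested.

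**Figure D2:**
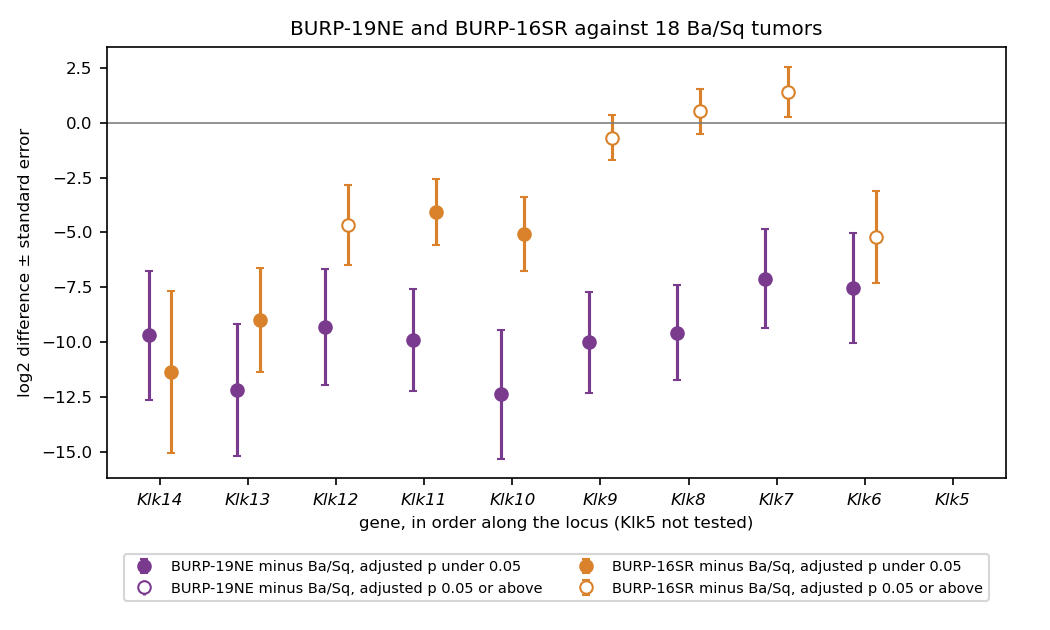
Log2 difference of each kallikrein gene between BURP-19NE (purple) or BURP-16SR (orange) and the 18 Ba/Sq tumors, with the standard error of edgeR's fit, and filled where adjusted p is under 0.05. All 9 tested genes are filled for BURP-19NE, while for BURP-16SR Klk7, Klk8 and Klk9 lie within 1.5 of 0 and Klk10, Klk11, Klk13 and Klk14 are filled. Where a line is at 0 the plotted difference depends on the prior count of the fit.

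The makeup of the family is given without a test. As a share of the summed level per kb of exon, Klk8 made up 79.2% to 86.2% in the BURP-16SR tumors. In the Ba/Sq tumors it had a median of 31.9% and ran from 9.51% to 100%, the latter in C102-M30, with 1 count in the whole family. Without C102-M30 the highest Ba/Sq share was 67.5%, in BURP-18BaSq, which is below the BURP-16SR values. Klk10 had a median share of 25.9% in the Ba/Sq tumors and 0.635% to 3.36% in BURP-16SR. The antisense gene 2310002F09Rik was also present in BURP-16SR, at 1.53 to 3.01 CPM against a Ba/Sq mean of 3.23 ± 3.17 CPM, and was at 0 in all BURP-19NE tumors. The part of its reads in the Klk8 level of BURP-16SR was not tested. The genes that flank the locus on the Klk14 side were present in all groups. Zfp719 was at 14.6 ± 3.44 CPM in the Ba/Sq tumors, 16.7 ± 6.12 in BURP-16SR and 13.3 ± 0.695 in BURP-19NE, and Ctu1 was at 11.2 ± 4.22, 6.23 ± 1.51 and 4.92 ± 0.523 CPM, the last of these called lower (log2 difference −1.16, adjusted p = 0.0116).

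**Figure D3:**
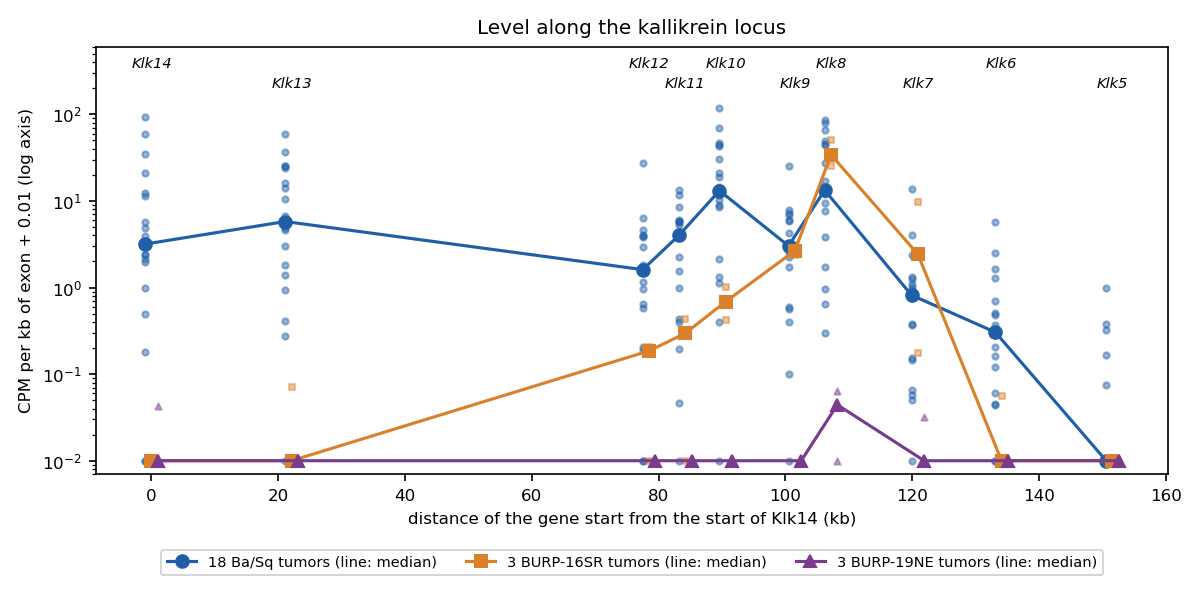
Level per kb of exon + 0.01 (log axis) of each kallikrein gene against the distance of its start from that of Klk14. Points are tumors and lines join the medians of the 18 Ba/Sq, 3 BURP-16SR and 3 BURP-19NE tumors. The BURP-16SR median is above the Ba/Sq median at Klk8 and Klk7, slightly below it at Klk9, and further below at the other detected members.

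Cells of other kinds could bring kallikrein RNA into a bulk tumor sample, and fewer cells of a type cannot be told apart from less RNA per cell. Of 8 hair follicle genes, Krt27, an inner root sheath keratin, was called higher in BURP-16SR (adjusted p = 2.08e-04), with a mean of 10.7 ± 7.17 CPM there and 0 in the Ba/Sq and BURP-19NE tumors. Krt25, Krt28, Krt33a and Krt35 did not pass the filter and were at 0.0957, 0.243, 0.641 and 0.131 CPM in BURP-16SR and at 0.00297, 0.0172, 0.112 and 0.0513 CPM in the Ba/Sq tumors. Krt71 and Krt73 did not pass it either. Krt71 was at 0 in BURP-16SR and 0.00467 CPM in the Ba/Sq tumors, and Krt73 at 0.0258 and 0.0161 CPM. Tchh, the trichohyalin gene, made up most of the list's sum, with 30.8 ± 12.96 CPM in BURP-16SR and 164 ± 194 CPM in the Ba/Sq tumors, and the sum was 26.2 to 65.2 CPM in BURP-16SR against 31.8 to 859 CPM in the Ba/Sq tumors. The part of hair follicle cells in the kallikrein levels of BURP-16SR was not tested. The sum of the 7 cornified epidermis genes was 2.87 to 4.49 CPM in BURP-16SR, 4.43 to 6.67 CPM in BURP-19NE and 37.0 to 2285 CPM in the Ba/Sq tumors, and Krt1, Krt2, Krt77 and Flg2 were at 0 in all BURP-16SR tumors. The part of squamous or cornified cells in the Klk8 level of BURP-16SR was not tested. Fibroblast genes (Col1a1, Col3a1, Dcn and Pdgfra) summed to 442 CPM in the BURP-16SR tumor P5, which had the highest Klk8 and Klk7, and to 5678 and 14939 CPM in the other two. In 4 sebaceous genes (Mc5r, Elovl3, Scd3 and Awat2) 0 were called in BURP-16SR or BURP-19NE, and of 4 melanocyte genes (Pmel, Tyr, Dct and Mlana) 1, Pmel, was called lower in each. Of 3 skeletal muscle genes (Acta1, Ckm and Myh4) 3 were called higher in BURP-19NE, carried by the tumor C80-M1 with a sum of 452 CPM, against 0.791 and 2.41 CPM in C80-M3 and C80-M30. Of 3 adipocyte genes 1 (Fabp4) was called lower there, and of 3 leukocyte genes (Ptprc, Csf1r and Cd3e) 0 were called in either line. Of the 4 fibroblast genes 2 (Col1a1 and Pdgfra) were called higher in BURP-16SR.

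Within the Ba/Sq subtype the tumors of some lines differed widely. The summed level of the 10 members ranged 2.04-fold among the tumors of BURP-12BaSq, 2.72-fold in BURP-24BaSq and 5.20-fold in BURP-17BaSq, but 16.1-fold in BURP-18BaSq (8.82 to 142 CPM), 22.0-fold in BURP-21BaSq (8.51 to 187 CPM) and 1191-fold in BURP-25BaSq (0.448 to 533 CPM). The span of BURP-25BaSq rests on C102-M1, whose RNA was closest to BURP-21BaSq, and on C102-M30, with 1 count, below its floor of 1.34 CPM. With both left out only C102-M3 remains, at 6.86 CPM, so no range can be given. In BURP-18BaSq the tumor C149-M3 was high and in BURP-21BaSq the tumor P4.2 was low for most members. BURP-24BaSq was the line in which all 3 tumors were high, with sums of 160.0, 280 and 434 CPM.

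For Klk8, ordered by the mean of the line, BURP-24BaSq came first with 67.8, 101.5 and 121 CPM (96.9 ± 27.1). BURP-17BaSq followed with 26.5, 134 and 75.9 CPM (78.8 ± 53.8). After BURP-16SR came BURP-12BaSq with 42.3, 21.7 and 19.3 CPM (27.8 ± 12.6). BURP-25BaSq had 0.979, 0.448 and 70.2 CPM, the last being C102-M1. BURP-21BaSq had 18.4, 1.47 and 11.7 CPM and BURP-18BaSq 2.61, 14.5 and 5.88 CPM. Each line overlapped the next in this order except BURP-18BaSq and BURP-19NE.

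Klk13 was highest in BURP-24BaSq, with 55.7, 85.1 and 136 CPM (92.3 ± 40.7), and the next line by mean, BURP-18BaSq, reached 57.7 CPM in C149-M3 and had 6.87 and 0.909 CPM in its other tumors. The means of the remaining Ba/Sq lines lay between 12.9 CPM in BURP-17BaSq and 20.4 CPM in BURP-25BaSq, overlapping one another. Klk10 was highest by mean in BURP-17BaSq, with 11.6, 64.9 and 95.2 CPM (57.2 ± 42.3), and every Ba/Sq line overlapped its neighbor in the order. Klk14 was at 7.19, 26.8 and 75.0 CPM in BURP-24BaSq and at 44.2, 3.09 and 15.6 CPM in BURP-21BaSq, while in BURP-12BaSq it did not pass 3.04 CPM.

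**Figure D4:**
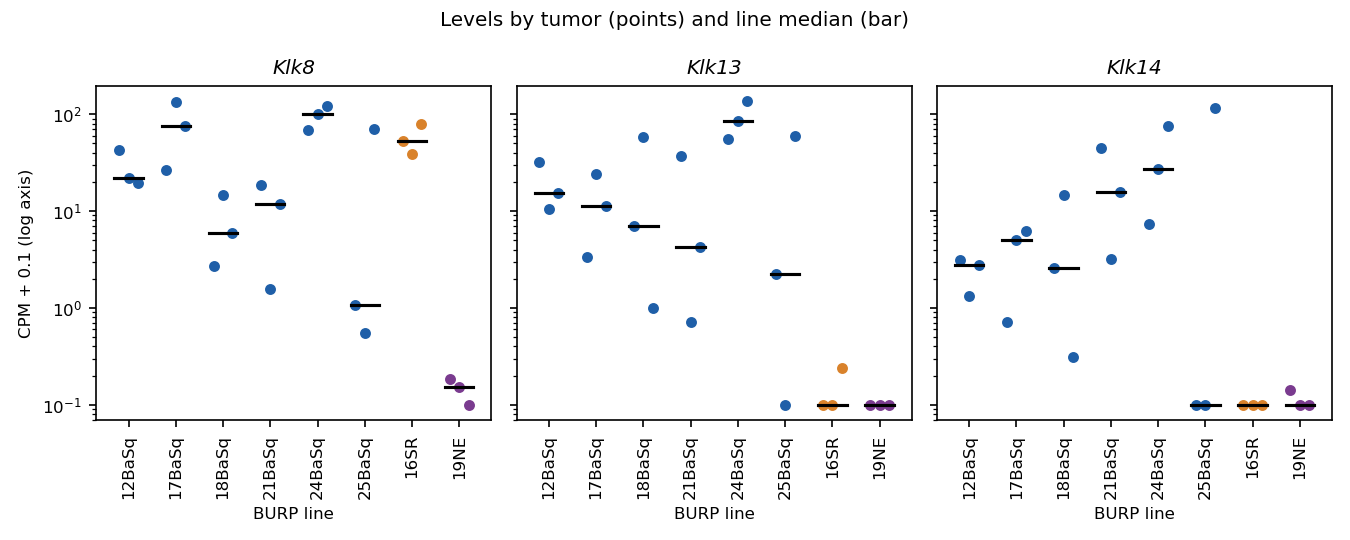
Klk8, Klk13 and Klk14 in CPM + 0.1 (log axis) in the 3 tumors of each line, with the median as a bar, in blue for Ba/Sq lines, orange for BURP-16SR and purple for BURP-19NE. BURP-24BaSq is the line whose 3 tumors are all high for Klk8 and Klk13, and in BURP-25BaSq 1 tumor stands far above the others.

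By edgeR's test of any difference among the 6 Ba/Sq lines, 0 of the 9 members tested were called, where 50.5% of the 20523 genes were. Klk8 was the 1 member under 0.05 before adjustment (adjusted p = 0.074), and DESeq2 called 1, Klk8 (adjusted p = 0.0435). DESeq2 gave no p-value for Klk11. Without C102-M1, edgeR called 3, Klk8 (adjusted p = 0.001), Klk14 (0.0173) and Klk11 (0.04996), and without both C102-M1 and C102-M30 it called 2, Klk8 and Klk14. Without C102-M3 it called 1, Klk8. The share of 50.5% belongs to the edgeR fit with all tumors, so the counts with tumors left out have no share of all genes beside them.

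When each Ba/Sq line was set against the mean of the other 5, edgeR called 0 of 54 combinations of member and line, with 5 at p under 0.05 before adjustment. DESeq2 also called 0 and had 5 at p under 0.05, but gave no p-value for Klk11 in any line. Of all genes, 11.1% were called in BURP-12BaSq, 6.18% in BURP-17BaSq, 15.5% in BURP-18BaSq, 2.86% in BURP-21BaSq, 7.79% in BURP-24BaSq and 2.59% in BURP-25BaSq. The 5 of edgeR were Klk8 in BURP-17BaSq (log2 difference 1.82 ± 0.78 SE, adjusted p = 0.145) and BURP-24BaSq (2.18 ± 0.77, adjusted p = 0.0652), Klk13 in BURP-24BaSq (2.41 ± 0.97, adjusted p = 0.102), and Klk7 (2.54 ± 0.98, adjusted p = 0.158) and Klk12 (2.21 ± 0.99, adjusted p = 0.224) in BURP-25BaSq. Those of DESeq2 were Klk7 in BURP-17BaSq (−2.57), Klk8 in BURP-18BaSq (−2.17), Klk8 (2.20) and Klk13 (2.42) in BURP-24BaSq, and Klk7 in BURP-25BaSq (2.49).

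These contrasts turned on C102-M1. Without it, 9 combinations were called by edgeR. The shares of all genes given above belong to the fits with all tumors, so the counts with tumors left out have none beside them. BURP-24BaSq was higher in Klk8 (log2 difference 3.15 ± 0.51 SE, adjusted p = 9.3e-04), Klk14 (4.62 ± 1.02, adjusted p = 0.00708), Klk13 (3.16 ± 0.85, adjusted p = 0.0188), Klk12 (3.05 ± 0.88, adjusted p = 0.0286) and Klk11 (2.29 ± 0.70, adjusted p = 0.0345). BURP-17BaSq was higher in Klk8 (2.79 ± 0.52, adjusted p = 0.0036) and BURP-21BaSq in Klk14 (3.65 ± 1.08, adjusted p = 0.0429). BURP-25BaSq, then left with 2 tumors, was lower in Klk8 (−4.97 ± 1.15, adjusted p = 0.012) and Klk9 (−5.39 ± 1.60, adjusted p = 0.0406), the latter from 1.32 (not called) with all tumors. Its values for Klk6, Klk7, Klk10, Klk11, Klk12 and Klk14 also turned from positive to negative, with Klk7 at −4.19 and Klk12 at −8.54, none of these called. With C102-M30 left out as well, 6 were called, those of BURP-24BaSq and Klk8 in BURP-17BaSq.

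The tumors of BURP-25BaSq held the extremes of the family. C102-M1 had the highest level of all 24 tumors for Klk5 (1.29 CPM), Klk6 (8.60), Klk7 (25.8), Klk9 (37.2), Klk10 (164), Klk12 (32.6) and Klk14 (117). C102-M3 had 154 counts over the family, with Klk14, Klk12, Klk6 and Klk5 at 0, in a library of 21895593 counts. C102-M30 had 1 count, with its floor of 1.34 CPM. The squamous genes were at full level in all 3, with Krt5 at 5612 CPM in C102-M3, 4831 in C102-M30 and 4157 in C102-M1. Krt10, a keratin of differentiated epidermis, was at 948 and 517 CPM in C102-M3 and C102-M30 and at 4.22 CPM in C102-M1. Spink5, the inhibitor, was at 272, 106 and 290 CPM in the same order. The 7 cornified genes summed to 1351 CPM in C102-M3 and 1539 CPM in C102-M30, where the median of the 18 Ba/Sq tumors was 516 CPM. The part of ribosomal RNA reads in C102-M30 in this result was not tested, while C102-M3 had a deep library.

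**Figure D5:**
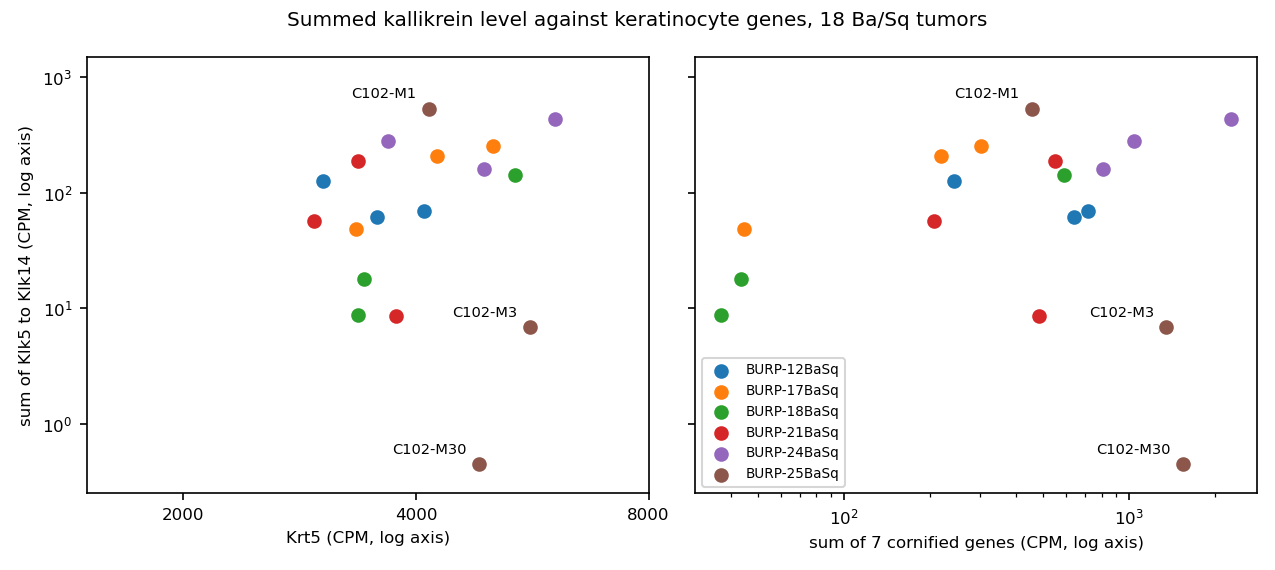
Summed level of Klk5 to Klk14 in CPM against Krt5 (left) and against the summed level of 7 cornified epidermis genes (right), all on log axes, in the 18 Ba/Sq tumors colored by line. Krt5 varies little, between 2950 and 6053 CPM, while the kallikrein sum runs from 0.448 to 533 CPM, and C102-M3 and C102-M30 combine high cornified genes with a low kallikrein sum.

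Tumors with more of 1 member tended to have more of the others. Over the 18 Ba/Sq tumors, Pearson's r of log2 CPM had a median of 0.83 over the 36 pairs of the 9 members that passed the filter, from 0.47 to 0.96. Without C102-M1 and C102-M30 the median over the 16 tumors left was 0.75, from 0.26 to 0.95. The closest pairs were Klk9 and Klk12 (r = 0.96), Klk10 and Klk11 (0.94), and Klk6 and Klk7 (0.94), of which Klk10 and Klk11, 1.77 kb apart, and Klk6 and Klk7, 8.14 kb apart, are direct neighbors. The loosest were Klk8 with Klk6 and with Klk7, both at r = 0.47 and, without those tumors, at 0.31 and 0.26. Klk8 and Klk7, 7.47 kb apart, are direct neighbors as well, and Klk9 and Klk12 are not. The tumors share lines and depths, so these values are descriptions.

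The 8 other genes whose log2 CPM was most like the mean of the 9 members over the 18 tumors were Gm23553 (r = 0.80), Sprr1b (0.80), Bcat1 (0.80), Gm44814 (0.79), Gm26637 (0.79), Defb14 (0.78), Gm45041 (0.78) and Gm47558 (0.77). Sprr1b encodes a small proline-rich protein of the cornified envelope, Defb14 a beta-defensin of epithelia and Bcat1 a cytosolic enzyme that transaminates branched-chain amino acids. Sprr1b ran from 0 to 318 CPM and Bcat1 from 0.49 to 48.8 CPM. Gm44814 lies within Klk13 on the same strand, so its likeness may come from shared reads. The other genes of this group were at most 16.7 CPM. Without C102-M1 and C102-M30 the 8 values lay between 0.61 and 0.76. With Krt5 the members' mean had r = 0.02, with Krt14 0.35, with the sum of the cornified genes 0.16, and with Flg, the filaggrin gene, 0.38. Without C102-M1 and C102-M30 these values were 0.16, 0.11, 0.43 and 0.61. Other squamous and cornified genes went the other way over the 18 tumors, with r = −0.28 for Trp63, −0.16 for Krt1 and −0.44 for Krt10. Without those tumors they were at 0.14, 0.12 and −0.19.

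Male and female Ba/Sq lines were set against each other with 9 tumors of 3 lines a side. All 8 members that passed the filter had lower fitted values in the male lines, and edgeR called 0, where 2.31% of the 17922 genes tested were called. Klk14 alone had p under 0.05 before adjustment. It was at 0.214 to 14.4 CPM in the male tumors (median 2.70) and at 0 to 117 CPM in the female tumors (median 15.6), which overlapped, with a log2 difference of −3.03 ± 0.99 (SE) and an adjusted p of 0.0792. DESeq2 called 1 member, Klk14. Klk14 was called by edgeR without C102-M3 (adjusted p = 0.0287), was not called without C102-M1 and C102-M30, and was not called with counts summed per line or with limma-voom and line as a random effect, under which 0 of all genes were called. Klk12 was next (−1.71 ± 0.88, adjusted p = 0.248), and Klk8 was at −0.21 ± 0.85. The median log2 difference of all genes was 0.04. The shared direction of the 8 members did not hold throughout. When single tumors were left out, Klk7, Klk8, Klk9 and Klk10 reached 0.27, 0.15, 0.12 and 0.28. The members are also correlated, so their directions are not separate results. Tumors of a line share a donor, so that 3 donors a side stand behind the 9 tumors.

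The partners of the kallikreins in the skin cascade were mostly lower outside the Ba/Sq lines. Of 9 inhibitor genes 6 were tested in BURP-19NE and BURP-16SR, and 5 and 3 were called lower, with 0 called higher. Their median log2 differences were −7.32 and −3.59, where that of all genes was −0.14 and −0.03. Of all genes 15.0% and 8.62% were called lower in the 2 lines and 9.33% and 10.5% higher. Of the 6 tested, 3 and 2 were at 0 in the line and had passed the filter through the Ba/Sq tumors alone. Spink5, whose product inhibits Klk5, Klk7 and Klk14, was at 157 ± 184 CPM in the Ba/Sq tumors and at 0 in all 6 other tumors, at adjusted p = 8.29e-04 in BURP-19NE and 0.00172 in BURP-16SR. Spint2, a Kunitz-type inhibitor of membrane serine proteases, was at 149.01 ± 82.9 CPM in the Ba/Sq tumors, 12.2 ± 3.34 in BURP-16SR and 17.7 ± 3.61 in BURP-19NE, and was called lower in both. Spint1, a related inhibitor of matriptase, was at 69.6 ± 49.4, 5.27 ± 2.57 and 0.571 ± 0.0235 CPM, lower in both. BURP-16SR thus had Klk8 and Klk7 RNA with Spink5 at 0.

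Of 7 membrane proteases and other activators 4 were tested in both lines, with 4 called lower in BURP-19NE and 3 in BURP-16SR and 0 called higher, at median log2 differences of −7.24 and −4.16, beside the same shares of all genes. In BURP-16SR 1 of the 4 was at 0. St14, which encodes matriptase, a membrane protease that starts the cascade in skin, was at 113 ± 84.3 CPM in the Ba/Sq tumors, 14.6 ± 4.07 in BURP-16SR and 0.314 ± 0.198 in BURP-19NE. Tmprss11e, a transmembrane serine protease, was the one not called in BURP-16SR, with 54.3 ± 44.3 CPM in the Ba/Sq tumors and 64.0 ± 55.4 CPM in BURP-16SR (log2 difference 0.28, adjusted p = 0.815), and was called lower in BURP-19NE at 1.299 ± 0.657 CPM.

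Of 8 substrates and cornified proteins 7 were tested, with 7 called lower in BURP-19NE and 6 in BURP-16SR and 0 higher, at median log2 differences of −9.08 and −8.98. Of all genes 15.0% and 8.62% were called lower in these lines. In each line 5 of the 7 were at 0 and had passed the filter through the Ba/Sq tumors alone, so these counts have little weight. Flg was at 398 ± 522 CPM in the Ba/Sq tumors and at 0.0516 and 0.0176 CPM in BURP-16SR and BURP-19NE. Krt1, the keratin of the suprabasal epidermis, was at 105 ± 135 CPM in the Ba/Sq tumors and at 0 in the others. Dsg1b, a desmoglein cut during shedding, was at 54.0 ± 57.9 CPM in the Ba/Sq tumors and at 0 in all 6 others. Cdsn, the corneodesmosin gene and a substrate of Klk7, was the one not called in BURP-16SR, at 5.05 ± 2.96 CPM against 41.5 ± 61.0 CPM (adjusted p = 0.225).

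The protease-activated receptors, which kallikreins can cleave, were called in both directions. Of 4 receptors tested, 2 were called higher and 0 lower in BURP-19NE, and 2 higher and 1 lower in BURP-16SR. Their median log2 differences were 1.01 and 1.20. Of all genes 9.33% and 10.5% were called higher and 15.0% and 8.62% lower. F2rl1 (PAR2), the receptor most often named with Klk5 and Klk14, was at 34.7 ± 14.7 CPM in the Ba/Sq tumors and 75.1 ± 18.6 in BURP-19NE (log2 difference 1.13, adjusted p = 0.0117), and lower at 13.7 ± 1.55 in BURP-16SR (−1.28, adjusted p = 0.0225). F2r (PAR1) was at 17.7 ± 9.41 CPM in the Ba/Sq tumors, 106 ± 47.1 in BURP-16SR and 180 ± 25.4 in BURP-19NE, called higher in both. F2rl3 (PAR4) was called higher in BURP-16SR at 1.57 ± 0.587 against 0.562 ± 0.395 CPM.

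The other kallikrein genes were near silent. Of 17 of them, Klkb1 was the one tested in either line, at 0.618 ± 0.61 CPM in the Ba/Sq tumors and called lower in both other lines. It encodes plasma prekallikrein and lies outside the cluster. Klk1, the tissue kallikrein, had 25 counts over the 24 tumors. Klk4 and Klk15, the next members beyond Klk5 at 190.7 and 243.3 kb from the start of Klk14, had 0 counts.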

How the data were processed

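Ribosomal RNA was depleted by the authors, paired-end reads were aligned with STAR 2.6.0a to GRCm38 (GENCODE M16 genes), and the deposited values are RSEM 1.3.1 estimated counts per gene, not normalized, for 24 tumors. Of these values 12.5% were not whole, and they were rounded. Gene identifiers were matched to a later GENCODE annotation of GRCm38 (99.8% matched). Total counts per tumor ranged from 9295708 to 25370320.

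Analyses used R 4.3.3 with edgeR 4.0.16 (TMM, filterByExpr, glmQLFit and glmQLFTest), limma 3.58.1 and DESeq2 1.42.0. Each fit used all genes, with Benjamini-Hochberg adjustment, and held only the tumors compared. Log2 CPM used a prior count of 2. The fit was tested on simulated data. The labels name separate tumors of a line, which share 1 donor, so p-values measure the spread between tumors and not between donors. Lines, sex and subtype came from the labels and the study.

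Named were the 10 members, the genes of each list with the highest mean over the 18 Ba/Sq tumors, and the 8 genes most like the members. Marker genes are named beside their list. Klk4, Klk15, the antisense gene and the flanking genes were chosen after their values were seen. The members and lists were chosen with earlier results of these data known.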

Additional observations from a re-analysis of the deposited data

Results flagged for a closer look

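Levels were searched for single tumors that stand apart by Dixon's test within the 9 male and within the 9 female Ba/Sq tumors, which made 20 groups over the 10 genes. Chance alone flags about 1 in 20 groups. Of the 20 groups 10 had a flagged tumor, and the genes are correlated, so the flags are not independent.

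Among the female tumors C102-M1, labelled BURP-25BaSq, stood above the next tumor in Klk5 (1.29 against 0.496 CPM), Klk6 (8.60 against 2.44 CPM), Klk7 (25.8 against 4.50 CPM), Klk9 (37.2 against 11.7 CPM), Klk10 (164 against 60.6 CPM) and Klk12 (32.6 against 7.61 CPM). Among the male tumors C149-M3 of BURP-18BaSq stood above the next in Klk6 (3.78 against 1.04 CPM), Klk7 (7.72 against 2.06 CPM) and Klk14 (14.4 against 6.11 CPM). It alone held a count of Klk5 (0.0858 CPM, 1 count), below its floor of 0.257 CPM.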

How the results depend on the processing

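No paired analysis was made because a code, such as C41-M3, or a passage is all that names a tumor in the labels. The meaning of the codes is not given, and nothing in them is said to mark tumors that belong together across lines. In BURP-19NE 9 members were called, 8 by DESeq2, and 6 to 9 when each tumor was left out. In BURP-16SR 4 were called, 6 by DESeq2, 3 without the filter and 1 to 5 when each tumor was left out, 1 without any of its own tumors. For the difference among the Ba/Sq lines 0 were called, 1 by DESeq2, 2 without C102-M1 and C102-M30 (chosen after seeing the data) and 0 to 3 when each tumor was left out. For single lines against the other 5 the count was 0, 6 without C102-M1 and C102-M30 and 0 to 9 when each tumor was left out. Besides C102-M1, the tumors behind this were C149-M3 of BURP-18BaSq (2 calls without it, Klk11 in BURP-18BaSq and Klk13 in BURP-24BaSq), P4 of BURP-21BaSq (1, Klk13 in BURP-24BaSq) and C102-M3 (1, Klk8 in BURP-24BaSq). Between the sexes 0 were called, 1 by DESeq2 (Klk14), 1 without the filter (Klk5, adjusted p = 0.0411) and 0 to 1 when each tumor was left out.

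Some directions turned. Klk9 in BURP-25BaSq against the other lines was the one called after turning, at −5.39 (adjusted p = 0.0406) without C102-M1 and 1.32 (not called) with all tumors, in a range from −5.39 to 1.92 when each tumor was left out, and was −5.24 (not called) without C102-M1 and C102-M30. In BURP-16SR Klk7 was −0.30 without P5, in a range from −0.30 to 2.27 when each tumor was left out. Between the sexes, leaving out each tumor gave −1.97 to 0.27 for Klk7, −0.75 to 0.15 for Klk8, −0.92 to 0.12 for Klk9 and −0.91 to 0.28 for Klk10. The positive values came without C102-M1, except for Klk8, where they were 0.05 and 0.15 without C81-M30 and P2 of BURP-24BaSq. Without C102-M1 and C102-M30, Klk7 was 0.12 and Klk10 0.081, and with line as a random effect Klk8 was 0.55 and Klk9 0.17. In BURP-25BaSq against the other lines, leaving out each tumor gave −4.19 to 3.14 for Klk7 and −8.54 to 2.81 for Klk12, negative without C102-M1, and −4.05 and −8.61 without both. Leaving out each tumor gave −4.97 to 0.42 for Klk8 there, called at the lowest value alone, and −0.0095 to 3.65 for Klk14 in BURP-21BaSq, called at the highest value alone. The cause was not tested. Of the other alternative values of single members, 887 kept direction and call, 31 lost the call and 24 gained it. At a floor of 0.106 to 1.34 CPM, Klk5 could not be compared in most tumors, with 3 counts or more in 4 of the 18 Ba/Sq tumors and 0 of the 6 others.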
